A study of Mus musculus with 12 samples.

Results

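Expression of 10 genes of the transforming growth factor beta (TGF-beta) family was described in podocytes of diabetic mice that had lost Nsd2, a histone H3 lysine methyltransferase, from podocytes and of their floxed controls. The genes are the ligands Tgfb1, Tgfb2, Tgfb3, Bmp4, Bmp7 and Inhba, the receptors Tgfbr1, Tgfbr2 and Tgfbr3, and the secreted antagonist Grem1. They were found by gene symbol, and all 10 were present among the 23829 genes listed at 20 weeks and the 23777 listed at 28 weeks. All 10 passed the filter on low counts at both ages. Knockout mice were Cre+/Nsd2fl/fl, controls were Cre-/Nsd2fl/fl, and every group had diabetes induced with a high-fat diet and streptozotocin (HFD/STZ). RNA sequencing was done on primary podocytes at 20 and 28 weeks of age, stages the study calls early and advanced, with 3 libraries in each of 4 groups. The sources used here do not give the promoter driving Cre, and the 12 libraries include no non-diabetic mice and no mice with Cre but without floxed alleles.

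TGF-beta ligands are secreted as latent dimers, and once released they bring together the type II receptor Tgfbr2 and the type I receptor Tgfbr1, which phosphorylates Smad2 and Smad3. Bone morphogenetic proteins such as Bmp4 and Bmp7 signal through related receptors to Smad1, Smad5 and Smad9 and are bound outside the cell by antagonists such as gremlin. In the diabetic glomerulus TGF-beta is known for driving matrix deposition and podocyte loss, and Bmp7 is known as a factor that opposes TGF-beta in kidney fibrosis models.

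Total counts ran from 31405349 to 38989180 per library. Levels are given as counts-per-million (CPM) scaled with TMM over all 12 libraries. Differences are log2 fold changes of knockout over control with their standard error (SE), from edgeR's quasi-likelihood test fitted to all genes of an age. Calls were made at an adjusted p below 0.05, with the adjustment over every tested gene of the age. The targeted gene was lower in every knockout library: Nsd2 averaged 43.0 ± 10.5 CPM in knockouts and 80.5 ± 15.4 CPM in controls at 20 weeks, and 37.7 ± 4.57 CPM in knockouts and 83.0 ± 4.46 CPM in controls at 28 weeks (SD, n = 3 each). Its call at 20 weeks (adjusted p = 0.0402) ended without any of 5 of the 6 libraries. The podocyte label was checked against 12 markers, of which all had reads in every library. Podxl lay between 148 and 676 CPM, while nephrin (Nphs1) lay between 0.917 and 15.3 CPM. Transcripts of other kidney cells were also present, so levels and changes cannot be assigned to podocytes alone. Among pairs of libraries from the same group, control libraries 2 and 3 of the 28-week set were closest, with a biological coefficient of variation of 0.0472 against 0.225 to 0.413 in the others. Whether each library stands for its own animal is not stated, and the p-values rest on variation among libraries that may be technical.

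At both ages Bmp4 and Tgfb3 rose and Bmp7 fell in the Nsd2 knockouts. Tgfb2 rose at 20 weeks, and the receptor gene Tgfbr2 fell at 28 weeks. At 20 weeks 3 of the 10 genes rose, where 4.79% of all genes tested did, and 1 fell, where 5.13% did. At 28 weeks 2 rose, where 9.33% of all genes did, and 2 fell, where 11.9% did. The median log2 fold change of the 10 genes was 0.13 at 20 weeks and 0.20 at 28 weeks, against 0.01 and 0.07 over all genes. Tgfb1, Tgfbr1, Tgfbr3, Inhba and Grem1 passed the test at neither age. Bmp4 and Tgfb3 were called higher at both ages, as 2.16% of genes tested at both ages were, and Bmp7 was called lower at both, as 2.62% were.

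**Figure D1:**
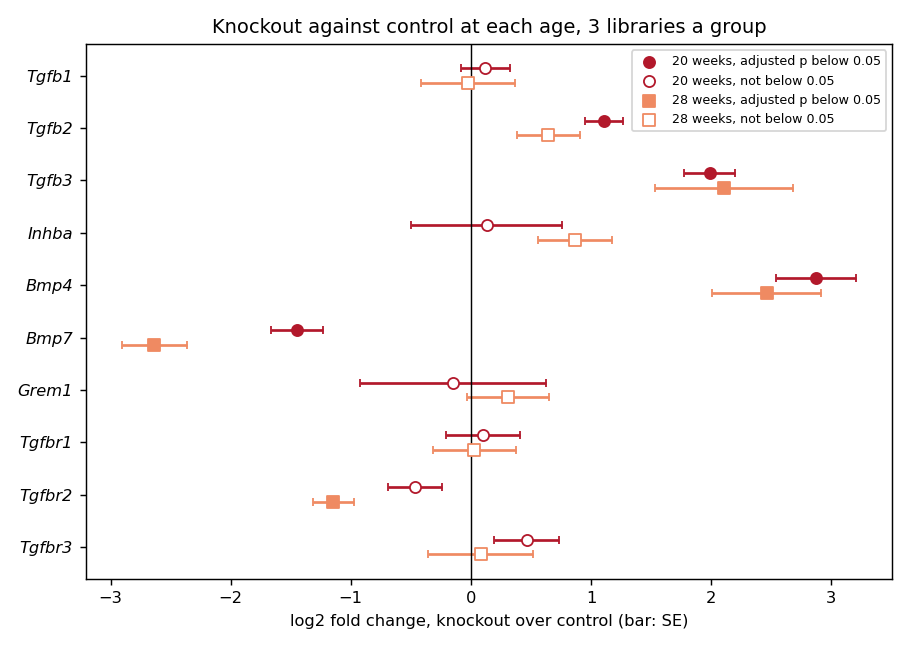
Log2 fold change of knockout over control for the 10 genes at 20 weeks (circles) and 28 weeks (squares), with bars for the SE and filled marks for an adjusted p below 0.05. Bmp4 and Tgfb3 lie to the right of 0 and Bmp7 to the left at both ages, and Tgfbr2 is filled at 28 weeks alone.

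The stretches of DNA before the start of Bmp4, Tgfb2 and Tgfbr2, the called genes with an entry in the RefSeq promoter table, are shown because these genes changed with Nsd2 loss in different directions. Each runs 250 bases up to the transcription start, read 5′ to 3′ on the gene's strand in build GRCm38.p6, and capitals mark the letters CAGAC or GTCTG, the core of a SMAD binding element.
Bmp4, chr14:46390670-46390919, minus strand: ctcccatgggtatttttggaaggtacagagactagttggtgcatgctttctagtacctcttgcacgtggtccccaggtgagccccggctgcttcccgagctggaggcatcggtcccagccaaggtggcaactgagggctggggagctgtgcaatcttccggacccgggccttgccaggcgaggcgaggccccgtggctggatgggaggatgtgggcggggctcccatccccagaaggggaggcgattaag
Tgfb2, chr1:186705990-186706239, minus strand: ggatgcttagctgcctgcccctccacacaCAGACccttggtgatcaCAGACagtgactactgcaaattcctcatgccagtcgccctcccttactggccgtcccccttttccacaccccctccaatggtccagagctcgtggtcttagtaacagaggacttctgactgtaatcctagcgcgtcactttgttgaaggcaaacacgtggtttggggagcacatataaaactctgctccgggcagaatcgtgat
Tgfbr2, chr9:116175364-116175613, minus strand: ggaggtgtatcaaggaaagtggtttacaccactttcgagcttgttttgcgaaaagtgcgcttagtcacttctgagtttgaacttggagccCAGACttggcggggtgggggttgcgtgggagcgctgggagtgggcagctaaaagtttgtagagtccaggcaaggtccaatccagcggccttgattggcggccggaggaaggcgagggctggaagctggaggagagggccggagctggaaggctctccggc

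The SMAD letters occurred 2 times in the Tgfb2 window, 1 time in that of Tgfbr2 and 0 times in that of Bmp4. They were present in 42.2% of the 32851 promoter windows of this length in the table, counting both strands. The core recognised by TEAD factors, the DNA-binding partners of the Hippo coactivators, was searched as GGAATG or CATTCC on both strands. It was in 12.6% of all windows and in 0 of these 3. A match in letters does not show binding. In GRCm38 with GENCODE M21 annotation, Bmp4 spans positions 46383520 to 46390669 of chromosome 14, Tgfb2 spans 186622792 to 186705989 of chromosome 1, and Tgfbr2 spans 116084293 to 116175360 of chromosome 9, all on the minus strand. Tgfb3 lies on chromosome 12 at 86056745 to 86079041 and Bmp7 on chromosome 2 at 172868012 to 172940321, also on the minus strand. All are protein-coding genes. Exons of transcripts on the other strand share 420 bases with Tgfb3, 124 with Tgfb2 and 89 with Bmp4. The sources used here do not say whether counting used the strand, so reads from those stretches cannot be told apart.

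Among the TGF-beta ligands, Tgfb3 had the largest difference at both ages. This isoform signals through the same receptors as Tgfb1. At 20 weeks knockout libraries 1 to 3 held 248, 296 and 276 CPM of Tgfb3, against 80.7, 53.6 and 78.7 CPM in control libraries 1 to 3. The groups did not overlap, and the log2 fold change was 1.99 (SE 0.21, adjusted p = 0.0029, n = 3 per group).

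At 28 weeks knockout libraries 1 to 3 held 70.8, 376 and 277 CPM of Tgfb3, against 72.8, 48.5 and 49.6 CPM in the controls. Knockout library 1 thus lay within the control range and the other knockouts well above it. Tgfb3 rose at this age too (log2 2.11, SE 0.58, adjusted p = 0.0454). The call was kept without knockout library 1 (log2 2.53, adjusted p = 0.00466). It ended without any other library, with adjusted p between 0.0911 and 0.146, and with control libraries 2 and 3 summed as 1 sample (0.146).

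Tgfb2, the isoform that needs the coreceptor Tgfbr3 for high-affinity binding, was at 100.4, 79.2 and 104 CPM in the 20-week knockouts, against 48.2, 41.8 and 44.4 CPM in the controls. All knockouts lay above all controls (log2 1.11, SE 0.16, adjusted p = 0.0066), and the call was kept without each library. At 28 weeks the knockouts held 47.9, 75.8 and 90.7 CPM and the controls 56.8, 40.4 and 42.4 CPM. Knockout library 1 again lay among the controls, and the difference did not pass (log2 0.64, SE 0.26, adjusted p = 0.134). Without that library it did (log2 0.86, adjusted p = 0.0266).

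Tgfb1, the isoform most often tied to diabetic glomerular scarring, showed no called difference. It averaged 76.2 ± 14.2 CPM in knockouts and 72.3 ± 7.18 CPM in controls at 20 weeks, with a log2 fold change of 0.12 (SE 0.20, adjusted p = 0.78). At 28 weeks the averages were 53.1 ± 18.5 CPM in knockouts and 54.8 ± 26.4 CPM in controls (log2 -0.02, SE 0.39, adjusted p = 0.975). The spread within the 28-week controls came from library 1, at 85.4 CPM against 39.8 and 39.4 CPM in the other libraries.

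Within each library the make-up of the TGF-beta ligand transcripts differed between genotypes. On the deposited FPKM scale, which divides by gene length, Tgfb3 made up 61.1%, 63.5% and 66.9% of the summed Tgfb1, Tgfb2 and Tgfb3 level in 20-week knockouts, against 38.8%, 31.1% and 35.8% in controls. At 28 weeks its share was 48.9%, 77.6% and 65.2% in knockouts, against 32.1%, 38.5% and 39.02% in controls. No knockout share lay within the control range at either age. With these lengths Tgfb1 had the largest share in every control library, at 47.7% to 59.3%, and Tgfb3 in every knockout library. The rank in controls turned with the lengths: with CPM divided by the GENCODE M21 exon bases, a choice made after seeing the data, Tgfb3 had the largest share in all 12 libraries. It then held 69.2%, 73.5% and 72.9% in 20-week knockouts, against 51.7%, 43.7% and 49.7% in controls, and 57.7%, 82.7% and 73.2% in 28-week knockouts, against 44.6%, 49.1% and 49.2% in controls. The share was higher in every knockout than in any control of its age with either set of lengths.

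Inhba, which encodes the activin A subunit, had the widest relative spread of the 6 ligands within each 20-week group, though not at 28 weeks. At 20 weeks it was at 877, 152 and 535 CPM in knockouts, against 353, 231 and 840 CPM in controls. The groups overlapped over most of their range (log2 0.13, SE 0.63, adjusted p = 0.929). At 28 weeks all knockouts, at 780, 538 and 668 CPM, lay above all controls, at 215, 433 and 467 CPM, but the difference did not pass (log2 0.86, SE 0.31, adjusted p = 0.0988).

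The BMP ligands moved in opposite directions. Bmp4, a ligand that patterns the ureteric bud and glomerulus in development, was at 94.3, 133 and 114 CPM in 20-week knockouts, against 22.3, 9.19 and 16.7 CPM in controls. The difference was the largest among the 10 genes at this age (log2 2.87, SE 0.33, adjusted p = 0.00355), and the call was kept without each library. At 28 weeks knockout libraries held 39.6, 144 and 76.8 CPM, against 17.6, 15.4 and 15.1 CPM in controls. Knockout library 1 was the lowest of the knockouts but still above every control (log2 2.46, SE 0.45, adjusted p = 0.0131). This call ended without control library 2 (0.0582) or 3 (0.0601) and with these libraries summed (0.0595), with log2 fold changes between 2.41 and 2.43.

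Bmp7, which opposes TGF-beta signalling in kidney epithelium, was at 10.1, 7.58 and 6.7 CPM in 20-week knockouts, against 22.6, 21.1 and 24.4 CPM in controls. It fell (log2 -1.44, SE 0.22, adjusted p = 0.00766). The 28-week knockouts held 5.29, 6.38 and 4.53 CPM and the controls 45.9, 29.6 and 27.0 CPM. The groups were apart at both ages, and knockout library 1 at 28 weeks lay with the other knockouts for this gene. The fall at 28 weeks (log2 -2.63, SE 0.27, adjusted p = 0.00343) was kept without each library and with control libraries 2 and 3 summed (log2 -2.76, adjusted p = 0.02).

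The ratio of Bmp4 to Bmp7 within a library, on the FPKM scale, was 16.6, 31.3 and 30.2 in 20-week knockouts, against 1.76, 0.777 and 1.22 in controls. At 28 weeks it was 13.3, 40.2 and 30.2 in knockouts, against 0.683, 0.930 and 0.997 in controls. The lowest knockout ratio at either age was above every control ratio, and this ratio does not depend on the scaling between libraries.

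**Figure D2:**
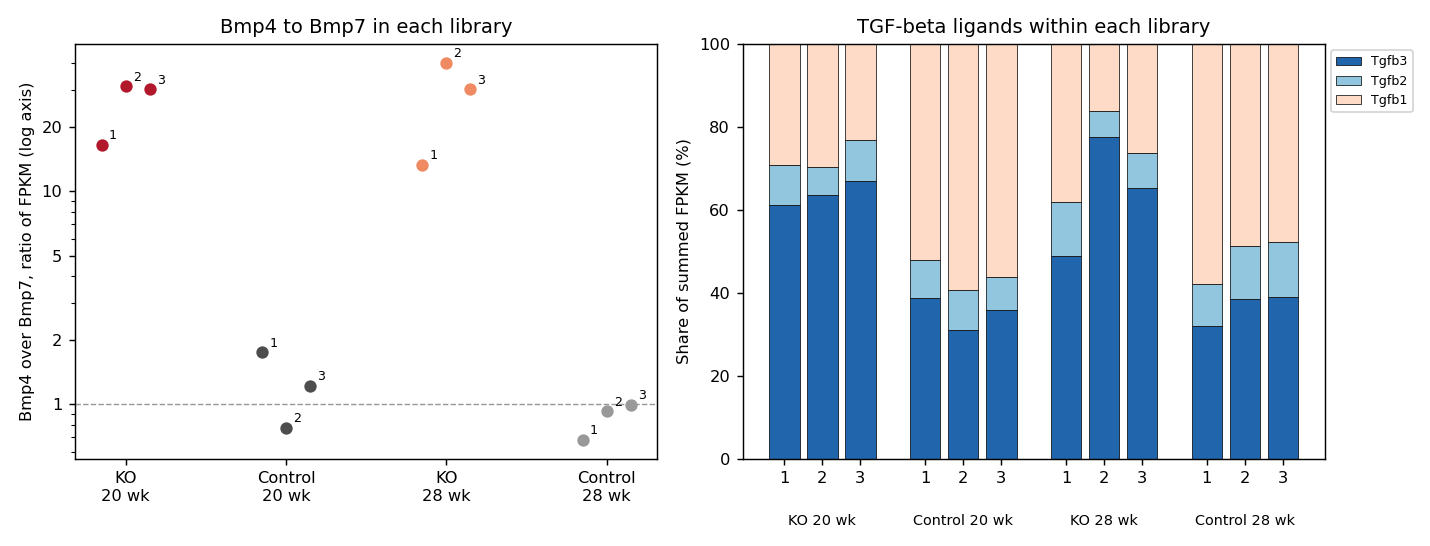
Left, ratio of Bmp4 to Bmp7 FPKM in each library on a log axis, with a dashed line at 1; right, percent of the summed Tgfb1, Tgfb2 and Tgfb3 FPKM held by each ligand in each library, with knockouts left of controls at each age. Knockout ratios lie between 13.3 and 40.2 and control ratios between 0.683 and 1.76, and Tgfb3 has a larger share in every knockout bar than in any control bar.

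Grem1, the antagonist that binds Bmp4 and Bmp7, was low and variable. Its levels were 20.4, 3.42 and 5.36 CPM in 20-week knockouts, against 9.8, 2.98 and 19.6 CPM in controls (log2 -0.15, SE 0.77, adjusted p = 0.936). At 28 weeks they were 12.2, 6.05 and 8.88 CPM in knockouts and 4.93, 8.15 and 9.32 CPM in controls (log2 0.31, SE 0.34, adjusted p = 0.584). The groups overlapped at both ages. The libraries highest in Grem1 were also the highest in Inhba at 20 weeks: knockout library 1 and control library 3. Of the 45 pairs among the 10 genes, Inhba and Grem1 had the most similar profiles over the 12 libraries, with a root mean square difference of 0.46 on the log2 CPM scale after centring each gene on its own mean. Tgfb3 and Bmp4 came next at 0.46, and Bmp4 and Bmp7 were the least alike at 2.37.

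Among the receptors, Tgfbr2, the type II receptor that binds the ligand first, was at 195, 112 and 112 CPM in 20-week knockouts, against 211, 188 and 193 CPM in controls. Knockout library 1 lay within the control range and the difference did not pass (log2 -0.47, SE 0.22, adjusted p = 0.247). Without that library it passed (log2 -0.75, adjusted p = 0.0329). The 28-week knockouts held 97.0, 116 and 137 CPM and the controls 300.3, 241 and 247 CPM. Tgfbr2 fell at this age (log2 -1.15, SE 0.17, adjusted p = 0.00724), with no overlap between the groups, and the call was kept without each library.

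Tgfbr1, the type I receptor kinase, averaged 71.7 ± 26.4 CPM in knockouts and 67.6 ± 19.7 CPM in controls at 20 weeks, and 87.0 ± 35.5 CPM in knockouts and 87.2 ± 26.4 CPM in controls at 28 weeks. Its log2 fold change was 0.10 (SE 0.31, adjusted p = 0.888) and 0.03 (SE 0.34, adjusted p = 0.965). Tgfbr3, the coreceptor betaglycan, was at 19.4, 15.6 and 17.5 CPM in 20-week knockouts, against 17.0, 14.0 and 8.04 CPM in controls. On the scaling of that age alone all knockouts lay above all controls, and the difference did not pass (log2 0.47, SE 0.27, adjusted p = 0.344). At 28 weeks the knockouts held 7.84, 19.6 and 27.1 CPM and the controls 22.1, 16.3 and 14.1 CPM (log2 0.08, SE 0.44, adjusted p = 0.921). Knockout library 1 was the lowest of all 12 libraries.

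At 20 weeks knockouts and controls did not overlap for 5 of the 10 genes on the scaling of that age alone, against 32.2% of all genes. Tgfbr3 is among the 5, and it overlaps on the 12-library CPM scale printed and plotted here. All knockouts lay above all controls for 4 of them, where 15.5% of all genes did, and below for 1, where 16.7% did. At 28 weeks 4 of the 10 did not overlap, against 42.2% of all genes, with 2 above, where 19.3% of all genes were, and 2 below, where 22.8% were.

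**Figure D3:**
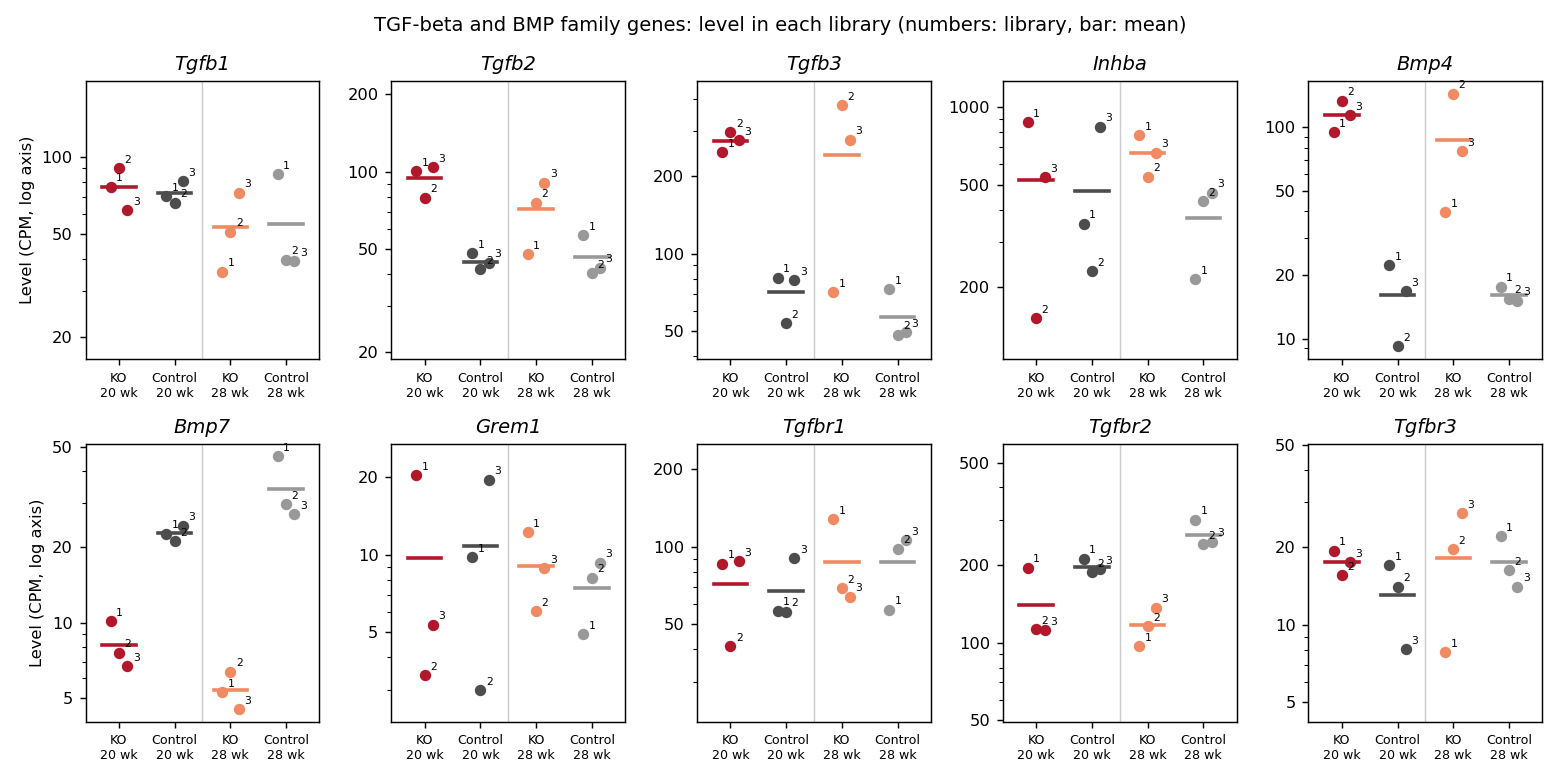
Level of each of the 10 genes in CPM on a log axis, 1 point per library with its library number, knockouts left of controls at 20 and at 28 weeks, and a bar at the group mean. Bmp7 and Bmp4 are apart between knockouts and controls at both ages, and knockout library 1 at 28 weeks lies with the controls for Tgfb3 and Tgfb2.

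The order of the genes by FPKM also differed between the groups. In 20-week knockouts Tgfb3 (80.0 ± 10.3 FPKM) and Bmp4 (54.8 ± 11.5) came first, and Bmp7 (2.18 ± 0.419) last. In 20-week controls Tgfbr2 (42.3 ± 3.26 FPKM), Tgfb1 (33.8 ± 3.34), Inhba (33.5 ± 22.6) and Tgfb3 (21.6 ± 4.78) led, and Tgfbr3 (2.2 ± 0.793) was last. The order of Tgfb1 and Inhba was within their spread. At 28 weeks Tgfb3 (69.4 ± 44.7 FPKM), Inhba (44.4 ± 8.18) and Bmp4 (41.0 ± 24.8) led in knockouts without differing beyond their spread, and Bmp7 (1.43 ± 0.238) was last. In 28-week controls Tgfbr2 led at 55.4 ± 5.98 FPKM, above Inhba (25.9 ± 9.77), Tgfb1 (25.1 ± 11.7) and Tgfb3 (17.0 ± 3.8), which overlapped. The length behind these values is 14541 bases for Inhba, 2197 for Tgfb1 and 4788 for Tgfbr2. In GENCODE M21 they have 6390, 5042 and 8187 exon bases. The place of these genes in the order, including the lead of Tgfbr2 in controls, thus depends on the annotation.

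Change with age was fitted in 1 model of all 12 libraries, and age coincides with the deposited table. For the 10 genes the change of the knockout effect from 20 to 28 weeks had its smallest p for Bmp7, whose fall was larger at 28 weeks by -1.18 on the log2 scale (SE 0.33, unadjusted p = 0.00409, adjusted p = 0.538). Tgfbr2 followed (-0.68, SE 0.31, unadjusted p = 0.0506, adjusted p = 0.549). No gene in the whole table was called for this change (0% of 15662 genes, with 9.12% at an unadjusted p below 0.05), while DESeq2 called 25 genes and none of these 10. Within genotypes, 28 against 20 weeks, Bmp7 was -0.59 in knockouts (SE 0.23, adjusted p = 0.429) and 0.59 in controls (SE 0.23, adjusted p = 1). These contrasts also had 0% of genes called by edgeR, with 11.2% in knockouts and 2.98% in controls at an unadjusted p below 0.05. DESeq2 called 36 genes in knockouts and 1 in controls, again none of the 10.

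Summed markers of some other cells also differed between knockouts and controls, while those of others overlapped. Summed over 10 markers of mesangial cells, pericytes and smooth muscle, levels ran from 1032 to 1152 CPM in knockouts and from 345 to 429 CPM in controls at 20 weeks. At 28 weeks they were 513, 1165 and 1031 CPM in knockout libraries 1 to 3, against 281 to 433 CPM in controls. Knockout library 1 at 28 weeks, low in Tgfb3 and Bmp4 among the knockouts, was thus also the lowest knockout in these markers, and Myh11 (smooth muscle myosin) was at 2.40 CPM there against 74.9 and 71.7 CPM in knockouts 2 and 3. Of the 10 markers, 8 rose and 0 fell at 20 weeks, and 4 rose and 0 fell at 28 weeks. Over all genes tested, 4.79% rose at 20 weeks and 9.33% at 28 weeks. None of the 10 was at 0 in any library.

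The sum of 7 parietal epithelial markers ran the other way at 20 weeks. It was 1967, 598 and 602 CPM in 20-week knockouts, against 2679 to 5663 CPM in controls. At 28 weeks it was 9362, 636 and 927 CPM in knockouts, against 2717 to 6889 CPM in controls, so knockout library 1 held more than any control. Its sum came mainly from Krt8 (5503 CPM) and Cd24a (2830 CPM), both above every 28-week control. The other 5 markers, Krt7, Krt18, Krt19, Cldn1 and Pax8, lay below every control there, for instance Krt7 at 375 CPM against 870 CPM or more in controls. At 20 weeks 0 of 7 rose and 4 fell, where 5.13% of all genes fell. At 28 weeks 0 of 7 rose and 1 fell, where 11.9% of all genes fell. The sum of the tubule markers was 640, 59.0 and 71.8 CPM in 20-week knockout libraries 1 to 3, against 1095 to 1158 CPM in controls. At 28 weeks it was 918, 31.7 and 184 CPM in knockout libraries 1 to 3, against 1869 to 1903 CPM in controls. Knockout library 1 was thus the highest knockout in this sum at both ages. The sum of 4 mesothelial markers was 5.94, 3.18 and 2.02 CPM in 20-week knockouts, against 43.5 to 99.9 CPM in controls, and 5.38, 1.61 and 2.75 CPM in 28-week knockouts, against 120 to 172 CPM in controls. Both tested members, Msln and Upk3b, fell at both ages. In controls the mesothelial sum was mostly Msln, at 112 to 166 CPM at 28 weeks. The summed mesothelial markers, like Bmp7, lay well below the controls in knockout library 1 at 28 weeks as in the other knockouts. The tubule sum and the 5 parietal markers named above also lay below every control in all 28-week knockouts. The sum of 8 leukocyte markers was 24.5 to 62.7 CPM in knockouts and 32.2 to 153 CPM in controls at 20 weeks, and 50.3 to 104 CPM in knockouts and 32.9 to 44.6 CPM in controls at 28 weeks, where Adgre1 and Tyrobp rose. Fibroblast markers summed to 17.3, 12.2 and 12.5 CPM in 20-week knockouts, all above the 5.74 to 8.25 CPM of controls. At 28 weeks they summed to 5.76, 15.3 and 13.2 CPM in knockouts, against 8.70 to 10.2 CPM in controls. Of 3 fibroblast markers tested, 1 rose and 0 fell at 20 weeks, and 2 rose and 1 fell at 28 weeks. Endothelial markers summed to 41.8 to 128 CPM in knockouts and 60.6 to 89.8 CPM in controls over both ages. The part of these markers in the changes of the 10 genes was not tested, and in such bulk samples fewer cells of a type and less RNA per cell cannot be told apart. The podocyte marker sum was 2007 to 2633 CPM in knockouts and 854 to 1470 CPM in controls at 20 weeks. At 28 weeks it overlapped, at 762, 2286 and 1412 CPM in knockout libraries 1 to 3, against 1295 to 2060 CPM in controls. Knockout library 1 was thus the lowest knockout in podocyte markers too, as in those of mesangial cells, pericytes and smooth muscle. Of the 12 podocyte markers, 7 rose and 0 fell at 20 weeks, where 4.79% of all genes rose. At 28 weeks 0 of the 12 rose and 2 fell, where 9.33% of all genes rose and 11.9% fell.

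**Figure D4:**
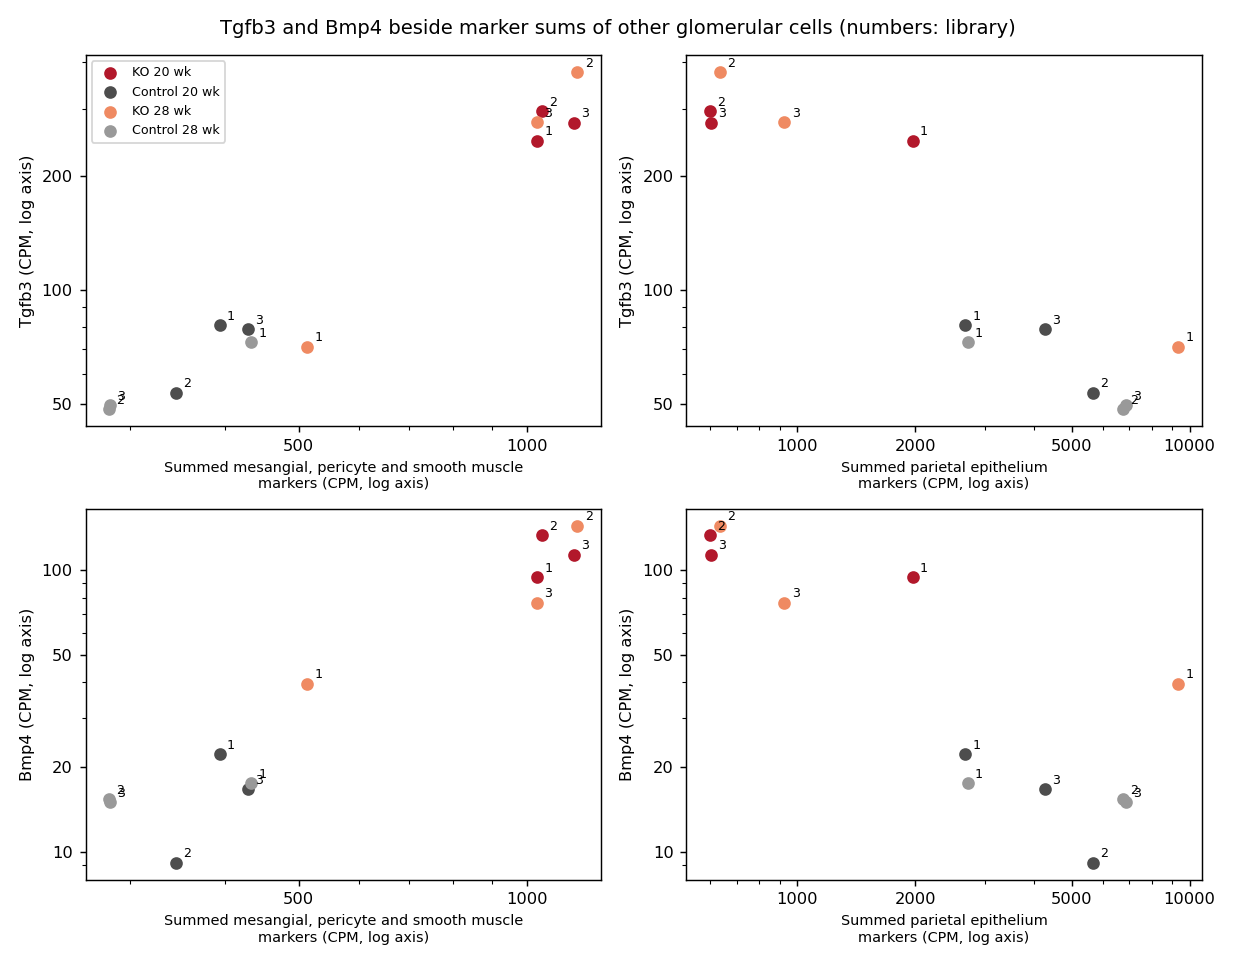
Tgfb3 (top) and Bmp4 (bottom) in CPM (vertical) against the summed CPM of mesangial, pericyte and smooth muscle markers (left) or parietal epithelial markers (right), with log axes throughout and 1 point per library with its number. Knockout library 1 at 28 weeks, at 70.8 CPM of Tgfb3, lies apart from the other 5 knockout libraries.

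The genes most like Bmp7, Bmp4 and Tgfb3 over the 12 libraries were sought among 10775 genes averaging 5 CPM or more, by the same root mean square difference of centred log2 profiles. For Bmp7 they were Usp43 (0.26), Olfm2 (0.27) and Plekhh1 (0.29), against a median of 1.15 over all genes compared. For Bmp4 they were Mmp17 (0.33), Lmod1 (0.38) and C1qtnf7 (0.39), against a median of 1.41. For Tgfb3 they were Lgals9 (0.25), Igfbp3 (0.30) and Gucy1a1 (0.30), against a median of 1.15. Lmod1, a leiomodin of smooth muscle, is also among the 10 mesangial, pericyte and smooth muscle markers.

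Beyond the 10 genes, 89 others of the pathway were listed and 83 were tested at each age. At 20 weeks 17 rose and 5 fell, and at 28 weeks 13 rose and 15 fell. Called shares were 26.5% and 33.7%, against 9.92% and 21.2% of all genes, and the lists were drawn up with earlier results of these data known. For the counts of each list below, the shares over all genes were 4.79% higher and 5.13% lower at 20 weeks. At 28 weeks these shares were 9.33% higher and 11.9% lower. Of the called genes named from these lists, 6 of 19 at 20 weeks and 9 of 24 at 28 weeks kept their call without each library. With control libraries 2 and 3 summed as 1 sample, 14 of the 24 calls at 28 weeks ended, those of Bmp6, Acvr1b, Bmpr1a, Smad2, Smad7, Bmper, Fbn1, Itgb6, Itgav, Tgif1, Skil, Smurf1, Postn and Id3.

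Among other ligands, 1 rose and 1 fell of 9 tested at 20 weeks, where 9.92% of all genes were called. At 28 weeks 0 of 9 rose and 3 fell, where 21.2% of all genes were called. Gdf15, a stress-induced ligand, fell at both ages (log2 -1.12, adjusted p = 0.0125, and -1.57, adjusted p = 0.00312). It averaged 131 ± 14.1 CPM in knockouts and 397 ± 46.0 CPM in controls at 28 weeks. At 20 weeks leaving out control library 1 or 2 ended the call. Bmp6, an iron-regulating BMP, fell at 28 weeks (log2 -1.66, adjusted p = 0.0183), to 4.03 ± 1.47 CPM in knockouts against 12.9 ± 3.54 CPM in controls. Bmp2 rose at 20 weeks (log2 1.25, adjusted p = 0.0425), a call that ended without any of the 6 libraries, and Bmp8a fell at 28 weeks (log2 -2.58, adjusted p = 0.0157), to 0.147 ± 0.0747 CPM in knockouts against 0.901 ± 0.291 CPM in controls. The call of Bmp6 ended without any control library or knockout library 2, and that of Bmp8a without control library 1 or 2.

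Of 9 other receptors tested, 0 were called by edgeR at 20 weeks, where Acvrl1 (log2 0.65, adjusted p = 0.1) and Eng (log2 0.63, adjusted p = 0.171) had the smallest p. At an unadjusted p below 0.05 there were 3 of the 9, where 25% of all genes tested at 20 weeks were. Of the 2 named, DESeq2 called Acvrl1. At 28 weeks 1 of the 9 rose and 1 fell, where 21.2% of all genes were called. Bmpr1a, a type I receptor for BMPs, rose (log2 0.77, adjusted p = 0.0245) to 291 ± 61.5 CPM in knockouts, against 174 ± 6.76 CPM in controls. Acvr1b, a type I activin receptor, fell (log2 -0.58, adjusted p = 0.0169). Both calls ended without control library 2 or 3, and that of Bmpr1a also without control library 1 or knockout library 2 or 3.

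Of the 8 SMAD genes, Smad3, the main transducer of TGF-beta, was at 121, 76.0 and 61.7 CPM in 20-week knockouts, against 201, 152 and 187 CPM in controls. At 28 weeks it was at 54.8, 62.8 and 73.3 CPM in knockouts, against 232, 178 and 184 CPM in controls. No knockout reached a control at either age. It fell at 20 weeks (log2 -1.03, SE 0.25, adjusted p = 0.0414), a call that ended without any library but knockout 1, and at 28 weeks (log2 -1.61, SE 0.17, adjusted p = 0.00351), a call kept without each library. Smad9, a BMP transducer, rose at 20 weeks (log2 3.97, adjusted p = 0.00902), to 3.13 ± 0.673 CPM in knockouts against 0.204 ± 0.178 CPM in controls, and did not pass at 28 weeks (log2 1.29, adjusted p = 0.548). At 20 weeks its call ended in the 12-library model (adjusted p = 0.0657), and the log2 fold change was 4.83 without control library 1 and 2.16 by limma on log2(FPKM + 0.1). Smad2 (log2 -0.36, adjusted p = 0.0403) and the inhibitory Smad7 (log2 -0.42, adjusted p = 0.0366) fell at 28 weeks, calls that ended without any control library and without knockout library 2, and for Smad2 also without knockout library 1.

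Of 14 secreted antagonists and modulators, 5 rose and 1 fell at 20 weeks, and 4 rose and 2 fell at 28 weeks. Decorin (Dcn), a proteoglycan that binds TGF-beta, rose at both ages (log2 3.51, adjusted p = 0.00286, and 3.91, adjusted p = 0.00875), to 8.25 ± 2.88 CPM in knockouts against 0.741 ± 0.135 CPM in controls at 20 weeks. Fstl1, a secreted follistatin-like glycoprotein, rose at 20 weeks to 1047 ± 38.1 CPM in knockouts, against 339 ± 112 CPM in controls (log2 1.66, adjusted p = 0.00761). Its 28-week levels were 577, 1216 and 1115 CPM in knockouts, against 366, 247 and 248 CPM in controls. The BMP antagonists Sostdc1 and noggin (Nog) fell at 28 weeks, Sostdc1 to 0.147 ± 0.126 CPM in knockouts against 3.31 ± 0.0466 CPM in controls (log2 -4.45, adjusted p = 0.00672) and Nog to 0.771 ± 0.281 CPM in knockouts against 3.3 ± 0.383 CPM in controls (log2 -2.07, adjusted p = 0.00916). Sostdc1 also fell at 20 weeks (log2 -5.35, adjusted p = 0.0117), a call that ended without control library 1 or knockout library 2. Bmper, a BMP-binding protein of endothelium, rose at 28 weeks (log2 1.80, adjusted p = 0.0122), a call that ended without control library 2 or 3. Its 20-week levels were 89.6, 71.7 and 78.4 CPM in knockouts, against 23.3, 13.4 and 37.2 CPM in controls. Biglycan (Bgn) rose at 20 weeks (log2 2.57, adjusted p = 0.00383).

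Of 13 genes for storage and activation of latent TGF-beta, 5 rose and 0 fell at 20 weeks, and 1 rose and 3 fell at 28 weeks. Ltbp1, which tethers latent TGF-beta to the matrix, was at 25.2, 16.9 and 30.0 CPM in 28-week knockouts, against 147, 117 and 116 CPM in controls (log2 -2.37, SE 0.24, adjusted p = 0.00338). It fell in the test with each library left out. Fibrillin 1 (Fbn1), the microfibril to which latent complexes bind, rose at 20 weeks (log2 2.10, adjusted p = 0.0145) and at 28 weeks (log2 1.85, adjusted p = 0.0181). The integrin subunit Itgb6, part of an epithelial activator of TGF-beta, fell at 28 weeks to 4.42 ± 4.16 CPM in knockouts, against 142 ± 21.3 CPM in controls (log2 -4.97, adjusted p = 0.0226). Its partner Itgav also fell (log2 -0.54, adjusted p = 0.0284). At 20 weeks Itgb5 (log2 1.04, adjusted p = 0.0117), Emilin1 (log2 1.09, adjusted p = 0.0416) and Lrrc32 (log2 0.67, adjusted p = 0.0341) rose. Of these calls each ended without 1 or more libraries, apart from that of Ltbp1.

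Of 10 intracellular regulators, 0 rose and 1 fell at 20 weeks, where 9.92% of all genes were called. At 28 weeks 0 of the 10 rose and 3 fell, where 21.2% of all genes were called. Tgif1, a corepressor of Smad2 and Smad3, fell at both ages (log2 -0.90, adjusted p = 0.0175, and -0.88, adjusted p = 0.0165). At 28 weeks the corepressor Skil (log2 -0.67, adjusted p = 0.0246) and the ubiquitin ligase Smurf1 (log2 -0.65, adjusted p = 0.0273) also fell. Each of these calls ended without 3 or more of the 6 libraries.

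Of 12 genes that respond to TGF-beta in many cells, 4 rose and 0 fell at 20 weeks, and 6 rose and 0 fell at 28 weeks. The medians were 0.84 and 1.12, against 0.01 and 0.07 over all genes. Timp1, an inhibitor of matrix metalloproteinases, was at 316, 364 and 394 CPM in 28-week knockouts, against 135, 142 and 147 CPM in controls (log2 1.37, SE 0.12, adjusted p = 0.00296). At 20 weeks its groups overlapped, at 190 to 293 CPM in knockouts and 127 to 335 CPM in controls. Col3a1, a fibrillar collagen, rose to 202 ± 104 CPM in knockouts, against 23.97 ± 10.2 CPM in controls at 28 weeks (log2 3.10, adjusted p = 0.00726), and Postn (periostin) rose too (log2 1.72, adjusted p = 0.012). The contractile Tagln, which smooth muscle also expresses, rose at both ages (log2 1.22, adjusted p = 0.0105, and 1.90, adjusted p = 0.00702). At 20 weeks Acta2 (log2 1.51, adjusted p = 0.00346), Col1a2 (log2 2.16, adjusted p = 0.0152) and Ccn2 (log2 0.78, adjusted p = 0.0204) were the other called genes. Acta2 was at 2336, 6532 and 5440 CPM in 28-week knockouts, against 1183, 1227 and 1209 CPM in controls. The Ccn2 call ended without any of 4 of the 6 libraries, that of Col1a2 without control library 1 or knockout library 2, and that of Postn without control library 2 or 3. The summed markers of mesangial cells, pericytes and smooth muscle were also higher in knockouts, as given above.

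Of 8 genes that respond to BMPs, 1 rose and 1 fell at 20 weeks, where 9.92% of all genes were called. At 28 weeks 1 of the 8 rose and 0 fell, where 21.2% of all genes were called. Id3, an inhibitor of helix-loop-helix factors, was at 46.1, 123 and 109 CPM in 20-week knockouts, against 42.0, 34.8 and 29.6 CPM in controls, and at 50.2, 180 and 59.9 CPM in 28-week knockouts, against 23.9, 25.8 and 26.3 CPM in controls. It rose at 20 weeks (log2 1.44, adjusted p = 0.0435) and at 28 weeks (log2 1.96, adjusted p = 0.0359), and each call ended without any 1 of the control libraries, the first also without knockout library 2 or 3. The homeobox gene Msx2 fell at 20 weeks (log2 -1.60, adjusted p = 0.0116), a call that ended without control library 1 or 2.

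**Figure D5:**
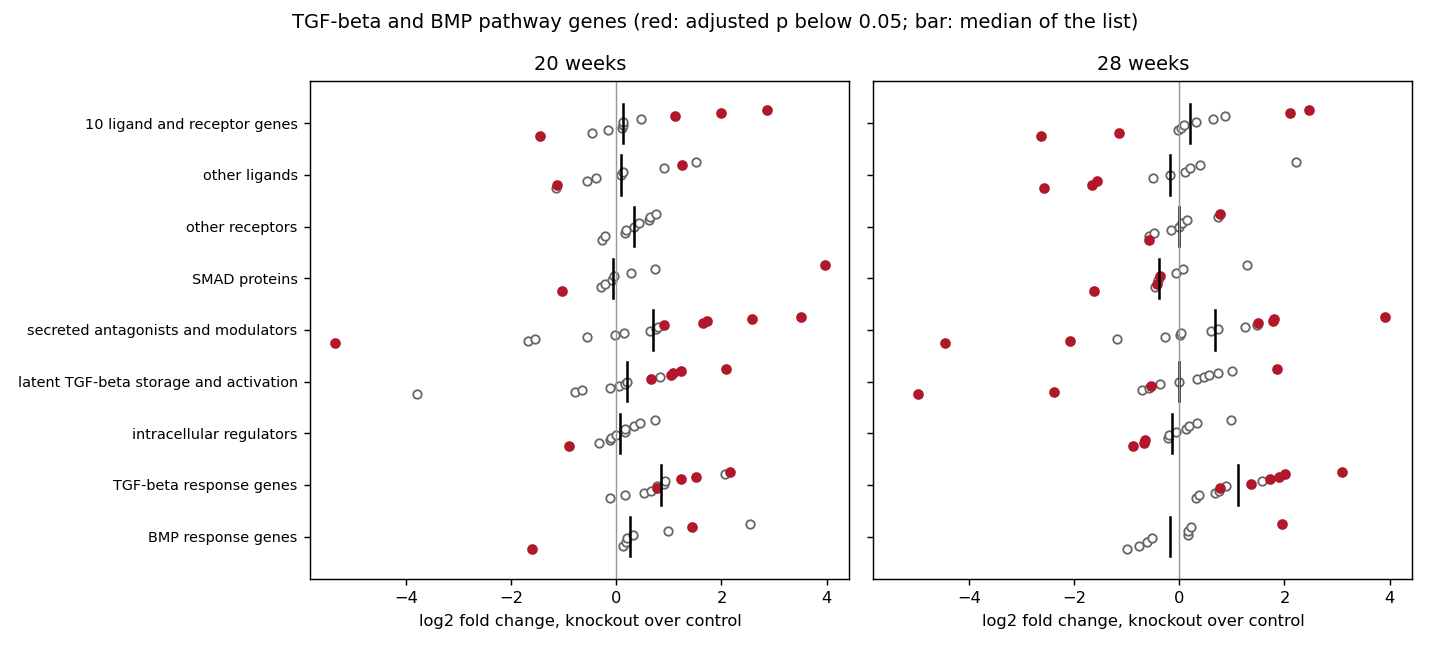
Log2 fold change of knockout over control at 20 weeks (left) and 28 weeks (right) for each tested gene of the 10 ligand and receptor genes and of 8 other pathway lists, with red points for an adjusted p below 0.05 and a bar at each list's median. TGF-beta response genes have medians of 0.84 and 1.12, and called SMAD genes at 28 weeks all lie below 0.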

How the data were processed

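The authors deposited, per the file headers, raw read counts by gene symbol and FPKM values, 1 table of each per age. The deposited FPKM values divide each count by 1 implied length per gene and by the column total of the count table. The reads were placed on GRCm38 (mm10), per the submitters' processing notes. No aligner, counting program, strand setting or annotation is named there; for these the sources used here give nothing. The labels do not split the libraries into batches. Age coincides with the deposited table, so age and any difference in handling between the ages cannot be told apart.

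The libraries of an age were fitted without those of the other age in edgeR 4.0.16 under R 4.3.3 (TMM, filterByExpr, quasi-likelihood F test without a block, Benjamini-Hochberg adjustment over all genes tested). Adjusted p-values come from it except where the text names another tool, and the SE is the fold change over the square root of F. Age contrasts came from 1 edgeR model of 12 libraries over the genes in both tables. Totals of 31405349 to 38989180 counts put the limit that 0 counts allows between 0.0769 and 0.0955 CPM (3 counts, counting error only). The fits were tested on simulated data, with 98 or 99 changed genes of each size. At a simulated log2 fold change of 1 in either direction, 28.6% of them were called at 20 weeks and 20.2% at 28 weeks. At a simulated log2 fold change of 2, 77.6% and 86.7% were called. A difference that did not pass may thus still be real.

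The 10 genes and all lists were chosen with earlier results of these data known. Named are the 10 genes, Nsd2, and in each other list up to 4 called genes with the smallest p at each age, or 2 where none was called. A gene named at 1 age may thus also differ at the other. Up to 3 of the 10 called at both ages had the 3 most similar genes named. Alternatives were DESeq2 1.42.0, its size factors in edgeR, other filters, limma 3.58.1 on log2(FPKM + 0.1), the 12-library model, a replicate block, each library left out, and control libraries 2 and 3 at 28 weeks summed; GENCODE M21 exon bases as gene lengths were added after seeing the data. No set test was run.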

Additional observations from a re-analysis of the deposited data

How the results depend on the processing

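At 20 weeks the calls of Tgfb2, Tgfb3, Bmp4 and Bmp7 were kept under every alternative run, and at 28 weeks that of Bmp7 was. Over all genes the calls at 20 weeks numbered 1473, with 2401 by DESeq2 and 517 to 2023 with 1 library left out. At 28 weeks they numbered 3183, with 332 under the replicate block, 1299 with control libraries 2 and 3 summed, and 1266 to 3374 with 1 library left out. Of the 10 genes, 1 to 2 fell at 20 weeks with 1 library left out. At 28 weeks 1 rose by limma on log2(FPKM + 0.1), 0 under the block, 0 with the controls summed, and 0 to 3 with 1 library left out, and 1 fell under the block. Under the block at 28 weeks adjusted p was 0.202 for Tgfb3, 0.0733 for Bmp4, 0.0682 for Tgfbr2, 0.0441 for Bmp7 and 0.0526 for Nsd2. Of the other named pathway calls, the block ended 4 of 19 at 20 weeks and 19 of 24 at 28 weeks, where Gdf15, Smad3, Ltbp1, Timp1 and Tagln stayed called. Adjusted p was then 0.0522 for Dcn, 0.0559 for Sostdc1, 0.0569 for Col3a1 and 0.0711 for Nog. The 12-library model ended 6 at 20 weeks (Bmp2, Smad9, Lrrc32, Emilin1, Ccn2 and Id3) and 6 at 28 weeks (Bmp6, Bmpr1a, Smad2, Itgav, Skil and Postn), and a filter of 1 CPM ended 4 at 20 weeks. Apart from Smad9, folds moved by over 1.5 times for Sostdc1 (log2 -7.10 at 20 weeks and -5.35 at 28 weeks without knockout 1, -3.42 and -3.54 by limma), Bmp8a (-1.57 by limma), Dcn (3.25 by limma and 3.29 without knockout 2 at 28 weeks), Itgb6 (-5.68 under the block, -5.87 without knockout 3) and Id3 (1.13 without knockout 2 at 28 weeks). Replicate numbers did not pair the libraries: same-numbered deviations correlated at -0.10, 0.32 and -0.17 at 20 weeks and at -0.57, -0.10 and -0.47 at 28 weeks. With limma, adjusted p for Tgfb3 at 28 weeks was 0.0912. DESeq2 called 25 genes whose knockout effect changed between the ages, 36 for age in knockouts and 1 for age in controls, and the count for age in knockouts was 0 to 4 with 1 library left out.

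Signs turned only for differences that did not pass. By limma the log2 difference was -0.013 for Tgfbr1 and -0.035 for Inhba at 20 weeks, and -0.078 for Tgfbr1 and -0.134 for Tgfbr3 at 28 weeks. Under the block at 28 weeks it was 0.040 for Tgfb1, -0.012 for Tgfbr1 and -0.040 for Tgfbr3, and for age in knockouts 0.066 for Grem1. At 28 weeks it was also 0.0055 for Tgfb1 with DESeq2 size factors, -0.0030 for Tgfbr1 in the 12-library model and -0.016 for Tgfbr3 with the controls summed. With 1 library left out, the 20-week differences ran from -0.061 to 0.29 for Tgfb1, -0.037 to 0.39 for Tgfbr1, -0.44 to 0.86 for Inhba and -1.25 to 0.64 for Grem1. Those at 28 weeks ran from -0.34 to 0.45 for Tgfb1, -0.39 to 0.19 for Tgfbr1 and -0.36 to 0.44 for Tgfbr3. The change between ages ran from -0.42 to 0.33 for Tgfb1, -0.36 to 0.53 for Tgfb3, -0.49 to 0.093 for Tgfbr1, -0.0059 to 1.30 for Inhba and -0.33 to 1.57 for Grem1. Age in knockouts ran from -0.68 to 0.21 for Tgfb3, -0.12 to 0.46 for Tgfbr1, -0.41 to 0.053 for Tgfbr2, -0.35 to 0.39 for Tgfbr3, -0.094 to 0.95 for Inhba and -0.51 to 1.04 for Grem1. Age in controls ran from -0.11 to 0.15 for Tgfb2, -0.28 to 0.29 for Bmp4, -0.68 to 0.35 for Inhba, -0.97 to 0.23 for Grem1 and -0.073 to 0.18 for Nsd2. The causes of these changes were not tested.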
